A study of Mus musculus with 8 samples.

Results

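Imprinted genes are read from the maternal or the paternal copy alone, according to methylation or histone marks that the egg or the sperm placed on the locus. The genes described here are 51 symbols known to be imprinted in the mouse, looked up by symbol among the 23234 genes listed for each library, and every one of them was listed. By textbook knowledge 27 of them are classed as expressed from the paternal allele and 22 from the maternal allele. Gnas and Grb10 use either allele, depending on the transcript or the tissue. Some of the classed genes, such as Ube3a, Cd81 and Kcnk9, are known to be imprinted in certain tissues, so a class need not hold in these embryos. The deposited values add both alleles together, so the parental origin of a transcript is background here and was not measured. The members lie on 12 chromosomes, with 19 of them on chromosome 7, 9 on chromosome 6 and 6 on chromosome 2.

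At many imprinted loci a region methylated in 1 germ line only keeps its mark through the demethylation that follows fertilization, with the help of ZFP57, TRIM28 and DPPA3. TET3 oxidizes methylated cytosines after fertilization, and the libraries compared embryos whose oocytes lacked it with embryos whose oocytes had it. A 2-cell embryo still holds RNA stored by the oocyte beside RNA made at genome activation. An imprinted gene can therefore be abundant at that stage whatever the state of its alleles in the embryo.

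RNA-seq was run on pools of whole embryos in 4 groups of 2 libraries each. The groups were Tet3-null and wild-type blastocysts, collected 96 h after fertilization in pools of 7, and Tet3-null and wild-type 2-cell embryos, collected at 30 h in pools of 10. Tet3-null embryos came from females labelled CKO with the genotype Zp3-Cre, f/-, in which the Zp3 promoter drives Cre in the growing oocyte. Wild-type embryos came from f/f females, whose floxed Tet3 alleles are intact. Eggs of both kinds of female were collected after superovulation and mixed in vitro with CAST/EiJ sperm, so every embryo also received a paternal Tet3 allele from the sperm. The labels do not tie the 2 libraries of a group to separate females, so each p-value reflects the spread of the libraries alone, which may be technical.

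Values are FPKM, fragments per length of transcript scaled to the mapped fragments of the library, with both libraries of a group given as replicate 1 and replicate 2. Summed over genes, FPKM came to 600495 to 956335 in a library, and 10607 to 11660 genes reached 1 FPKM; read totals are unknown. Tet3 itself stood at 3.28 and 4.41 FPKM in Tet3-null 2-cell embryos, against 10.8 and 7.54 FPKM in wild-type 2-cell embryos (log2 change -1.06, limma adjusted p = 0.0690). In blastocysts Tet3 was low and the genotypes overlapped, at 0.519 and 0.412 FPKM in Tet3-null and 0.957 and 0.459 FPKM in wild-type blastocysts (log2 change -0.21), so its level does not separate the genotypes at that stage. The 2-cell markers summed to 683 to 1253 FPKM in the 2-cell libraries, against 0.714 to 1.61 FPKM in the blastocyst libraries. Trophectoderm markers summed to 2724 to 4509 FPKM in the blastocyst libraries, against 42.9 to 60.3 FPKM in the 2-cell libraries. Not every trophectoderm marker rose: in wild-type embryos Hand1 was called lower in blastocysts (log2 change -1.76) and Tfap2c was not called. The inner cell mass markers did not separate the stages, at 230 to 261 FPKM in 2-cell and 236 to 259 FPKM in blastocyst libraries. Over all marker lists, Gata3 of the trophectoderm list was the 1 gene called between genotypes, higher in Tet3-null 2-cell embryos (limma adjusted p = 0.0449). Tet3-null 2-cell replicate 2 stood apart, with 7101 genes listed at 0 against 5549 to 6080 in the other 2-cell libraries and a summed Y-linked level of 0.166 FPKM against 28.1 to 38.6 FPKM. The changes of Cdkn1c, Impact and Ube3a and the 2-cell medians by parental origin are therefore also given without it. For other single genes, no 2-cell genotype change without it is given. The library kit does not mark strand, so reads of a gene and of a partner on the opposite strand cannot be told apart.

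Differences were tested with limma on log2(FPKM + 1) over the 13549 genes that reached 1 FPKM in 2 or more libraries, and a gene was called at a Benjamini-Hochberg adjusted p under 0.05 over all of them. Of the 51 imprinted genes, 36 passed that filter: 19 of the paternally expressed genes, 15 of the maternally expressed genes, and Gnas and Grb10. A log2 change on this scale understates the change of weakly expressed genes. The number of imprinted genes at 1 FPKM or more was 28 and 28 in Tet3-null 2-cell embryos, against 31 and 30 in wild-type 2-cell embryos. It was 29 and 29 in Tet3-null blastocysts, against 31 and 28 in wild-type blastocysts. Over all genes the share at 1 FPKM or more was likewise lower at the 2-cell stage, at 47.2% and 47.1% in Tet3-null against 50.2% and 49.8% in wild-type embryos. In blastocysts this share was 46.2% and 45.7% in Tet3-null, against 46.5% and 45.7% in wild-type.

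Start regions of the genes were read from RefSeq (build GRCm38.p6; the authors' values were made on mm9), where 40 of the 51 symbols had an entry, with 61 windows in all. The 6-base motif TGCCGC, which ZFP57 binds when its CpG is methylated, was searched on both strands in the 250 bases before each start. It was found in 10 of the 61 windows (16.4%) and in 2850 of all 32851 windows (8.68%). By gene, 5 of 23 paternally expressed members (21.7%) and 4 of 15 maternally expressed members (26.7%) held it, against 2660 of all 27025 genes (9.84%). The median number of CpG per window was 12 in imprinted genes and 6 over all windows. A match in the letters is a description and no record of binding. The windows of Mcts2, Mest and Plagl1, 3 paternally expressed genes with the motif whose RNA fell between the stages, are shown as examples on the plus strand with the motif of either strand in capitals. Genes with the motif did not all fall: Copg2 was called higher in blastocysts in both genotypes and Zdbf2, with 3 matches, in Tet3-null embryos, Meg3 was not called, and Nap1l5, Calcr and Zim1 were not tested.
Mcts2, chr2:152686898-152687147: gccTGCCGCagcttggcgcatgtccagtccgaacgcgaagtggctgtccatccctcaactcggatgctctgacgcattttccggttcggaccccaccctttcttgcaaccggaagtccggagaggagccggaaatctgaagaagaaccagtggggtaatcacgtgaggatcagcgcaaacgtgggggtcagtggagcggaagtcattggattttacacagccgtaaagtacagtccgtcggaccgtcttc
Mest, chr6:30737800-30738049: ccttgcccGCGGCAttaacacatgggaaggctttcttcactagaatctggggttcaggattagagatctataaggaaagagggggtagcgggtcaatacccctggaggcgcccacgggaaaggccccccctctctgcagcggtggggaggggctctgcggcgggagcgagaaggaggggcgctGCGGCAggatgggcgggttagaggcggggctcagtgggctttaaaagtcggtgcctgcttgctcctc
Plagl1, chr10:13090582-13090831: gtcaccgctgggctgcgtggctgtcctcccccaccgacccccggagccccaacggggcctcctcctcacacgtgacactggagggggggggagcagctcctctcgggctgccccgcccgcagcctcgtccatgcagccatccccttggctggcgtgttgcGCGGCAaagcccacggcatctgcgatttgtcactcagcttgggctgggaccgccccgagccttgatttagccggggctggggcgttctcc

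Usp29 and Peg3 are paternally expressed neighbours that start back to back from a shared stretch. The 163 bases between their starts hold 5 CpG, in capitals on the plus strand, and no match to the motif. They are shown because RNA of this pair differed more than 10-fold at the 2-cell stage, as described with the gene pairs.
Peg3 to Usp29, chr7:6730420-6730582: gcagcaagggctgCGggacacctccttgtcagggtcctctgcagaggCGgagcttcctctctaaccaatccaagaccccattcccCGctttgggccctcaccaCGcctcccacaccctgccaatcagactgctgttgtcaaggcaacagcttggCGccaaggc

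The first comparison asked which imprinted genes differed at the 2-cell stage when the oocyte lacked TET3. Of the 36 imprinted genes tested, 2 were called and both fell: Cdkn1c, which brakes the cell cycle and is read from the maternal copy, and Impact, which controls protein synthesis under nutrient stress and is read from the paternal copy. Over all genes 2.72% were called, 2.10% lower and 0.613% higher, and 2 calls in 36 are too few to set the imprinted genes apart from that share. At an unadjusted p under 0.05 limma named 11 of 36, against 23.7% of all genes. Cdkn1c had 11.98 and 6.64 FPKM in Tet3-null 2-cell embryos, against 29.7 and 27.0 FPKM in wild-type 2-cell embryos. Impact had 7.14 and 5.57 FPKM in Tet3-null 2-cell embryos, against 17.3 and 21.4 FPKM in wild-type 2-cell embryos. For both genes the Tet3-null libraries lay below both wild-type libraries, at about a 3.04-fold difference of the means for Cdkn1c and a 3.05-fold difference for Impact. The log2 change was -1.56 (SE 0.27, limma adjusted p = 0.0390) for Cdkn1c and -1.47 (SE 0.18, limma adjusted p = 0.0229) for Impact. Without Tet3-null replicate 2 they were -1.17 (limma adjusted p = 0.0450) and -1.32 (limma adjusted p = 0.0332). Both calls were lost when either wild-type library was left out, with limma adjusted p-values of 0.136 and 0.146 for Cdkn1c and of 0.0793 and 0.116 for Impact. The call of Cdkn1c was also lost with a pseudocount of 0.1, without the filter and under either other scaling (limma adjusted p = 0.0527 to 0.0646). The marker genes of the oocyte summed to 1740 and 2317 FPKM in Tet3-null and to 1724 and 1475 FPKM in wild-type 2-cell embryos, with none of the 6 called or at 0. Of 6 markers of cumulus and granulosa cells, 1 passed the filter, the summed level was 14.8 and 24.1 FPKM in Tet3-null against 30.0 and 20.0 FPKM in wild-type, and Ptx3, Inhba and Fshr were at 0 in all but Tet3-null replicate 1. The part of either in these results was not tested.

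**Figure D1:**
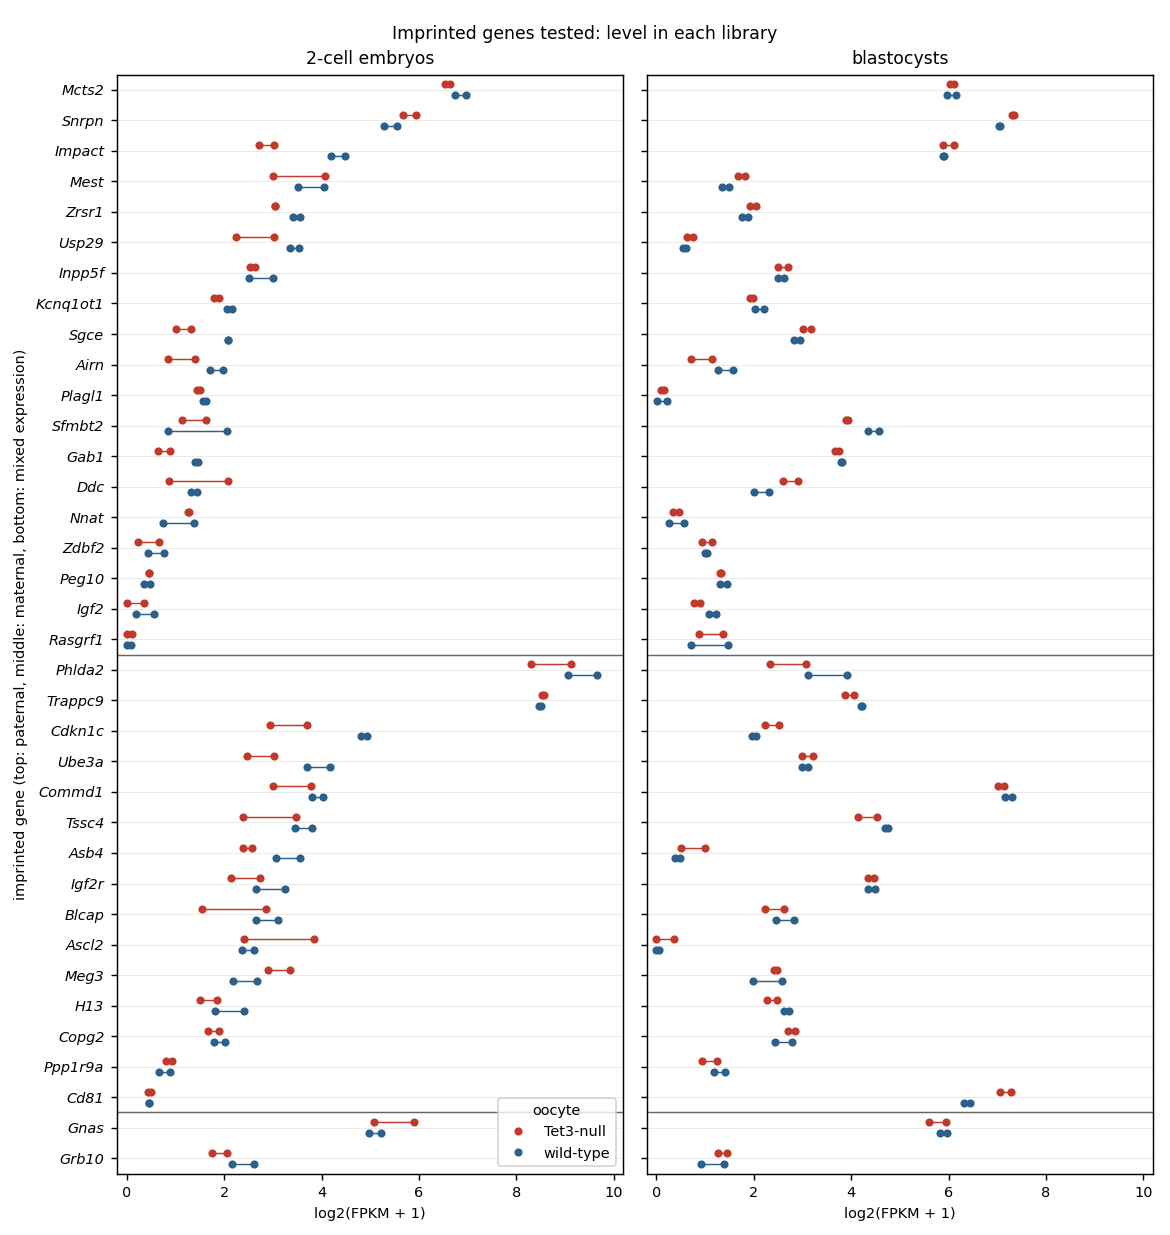
Level of each of the 36 tested imprinted genes in each library, as log2(FPKM + 1), with Tet3-null libraries in red above wild-type libraries in blue and a line joining the 2 libraries of a group. At the 2-cell stage Cdkn1c and Impact are among the genes with separate red and blue points, and in blastocysts Cd81 is.

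Among the growth regulators of the Kcnq1 domain, Cdkn1c was the only member called at the 2-cell stage in the fit of all libraries. Phlda2, a maternally expressed gene that limits growth of the placenta, had the highest group means of the imprinted genes, at 553 and 315 FPKM in Tet3-null and 530.5 and 807 FPKM in wild-type 2-cell embryos. These groups overlapped (log2 change -0.65, SE 0.41, limma adjusted p = 0.376). Ascl2, a transcription factor of trophoblast progenitors, measured 4.29 and 13.4 FPKM in Tet3-null and 5.15 and 4.12 FPKM in wild-type 2-cell embryos. The high value came from the library that stands apart, and the other Tet3-null library lay between the wild-type libraries. Tssc4, of the same domain, overlapped as well, at 4.26 and 10.1 FPKM in Tet3-null and 13.004 and 9.91 FPKM in wild-type embryos. Kcnq1ot1, the paternally expressed long RNA that silences the domain and a gene picked out here after its values were seen, had a log2 change of -0.28 (limma adjusted p = 0.355).

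Of the members tied to the insulin-like growth factor system, the tested genes Igf2r, Igf2 and Grb10 were not called at the 2-cell stage. Igf2r, the maternally expressed receptor that clears IGF2, stood at 5.65 and 3.44 FPKM in Tet3-null, against 5.27 and 8.52 FPKM in wild-type 2-cell embryos, and the groups overlapped. Its ligand Igf2 stayed under 0.5 FPKM in every 2-cell library, and the maternally expressed H19 was listed at 0 in all 4 of them. Grb10, an adaptor that dampens insulin signalling, had 2.36 and 3.19 FPKM in Tet3-null embryos, against 5.13 and 3.4997 FPKM in wild-type embryos. Its groups did not overlap, but the change was not called (log2 change -0.49, SE 0.25, limma adjusted p = 0.287).

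Several other genes lay lower in both Tet3-null 2-cell libraries without passing the test. Ube3a, the ubiquitin ligase that is maternally expressed in neurons, had 7.10 and 4.50 FPKM in Tet3-null embryos, against 17.0 and 11.99 FPKM in wild-type embryos. Sgce, the paternally expressed epsilon-sarcoglycan, had 1.012 and 1.49 FPKM in Tet3-null embryos, against 3.25 and 3.23 FPKM in wild-type embryos. Neither gene overlapped between genotypes, and both fell short of the threshold, with log2 changes of -1.20 (SE 0.25, limma adjusted p = 0.0566) for Ube3a and -0.92 (SE 0.18, limma adjusted p = 0.0508) for Sgce. Without Tet3-null replicate 1 the change of Ube3a was -1.47, and without Tet3-null replicate 2 it was -0.92. Asb4, a maternally expressed component of ubiquitin ligases, lies in the same imprinted domain as Sgce. It had 4.25 and 4.94 FPKM in Tet3-null embryos, against 10.7 and 7.38 FPKM in wild-type embryos. Usp29, a paternally expressed deubiquitinase, had 7.10 and 3.70 FPKM in Tet3-null embryos, against 10.6 and 9.17 FPKM in wild-type embryos. Both again lay apart with the Tet3-null libraries lower (limma adjusted p = 0.111 for Asb4 and 0.132 for Usp29). Zim3 overlaps Usp29 on the opposite strand, so reads of Usp29 and Zim3 cannot be told apart by strand. Zrsr1, a paternally expressed splicing factor gene that arose as a retrocopy, measured 7.28 and 7.20 FPKM in Tet3-null and 9.63 and 10.7 FPKM in wild-type embryos (limma adjusted p = 0.167). Gab1, a docking protein of receptor kinases, measured 0.560 and 0.855 FPKM in Tet3-null and 1.77 and 1.63 FPKM in wild-type embryos (limma adjusted p = 0.0812).

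Genes on the other side were fewer. Snrpn, the paternally expressed splicing protein SmN, had 50.2 and 60.4 FPKM in Tet3-null embryos, against 45.7 and 38.1 FPKM in wild-type embryos. Trappc9, a maternally expressed part of a vesicle tethering complex, had 379 and 369 FPKM in Tet3-null embryos, against 363 and 351 FPKM in wild-type embryos. The groups did not overlap in either gene, yet neither was called (limma adjusted p = 0.182 for Snrpn and 0.788 for Trappc9). Meg3, a maternally expressed long RNA that was picked out after its values were seen, had a log2 change of 0.69 (limma adjusted p = 0.200) and also lay higher in both Tet3-null libraries.

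In 3 of the 36 genes, Cdkn1c, Impact and Ube3a, the genotypes did not overlap and lay 1 or more log2 units apart, all lower in Tet3-null; the same held for 5.99% of all genes, 4.78% lower and 1.21% higher. Without a limit on size, 17 of 36 did not overlap, 3 higher and 14 lower, against 47.5% of all genes (12.6% higher and 34.9% lower). The median log2 change was -0.20 over the 19 paternally expressed genes and -0.51 over the 15 maternally expressed genes, beside -0.17 over all genes. The shift of all genes depends on the scaling: under median-of-ratios scaling the median over all genes was 0.02, that of the paternally expressed genes 0.01 and that of the maternally expressed genes -0.26. Leaving out Tet3-null replicate 1 gave -0.33 for the paternally expressed and -0.24 for the maternally expressed genes, and leaving out replicate 2 gave -0.22 for each of them, so the order of these medians rested on having both libraries. The standard error of a single gene was 0.25 at the median, with a range of 0.13 to 0.43 over the 36 genes.

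**Figure D2:**
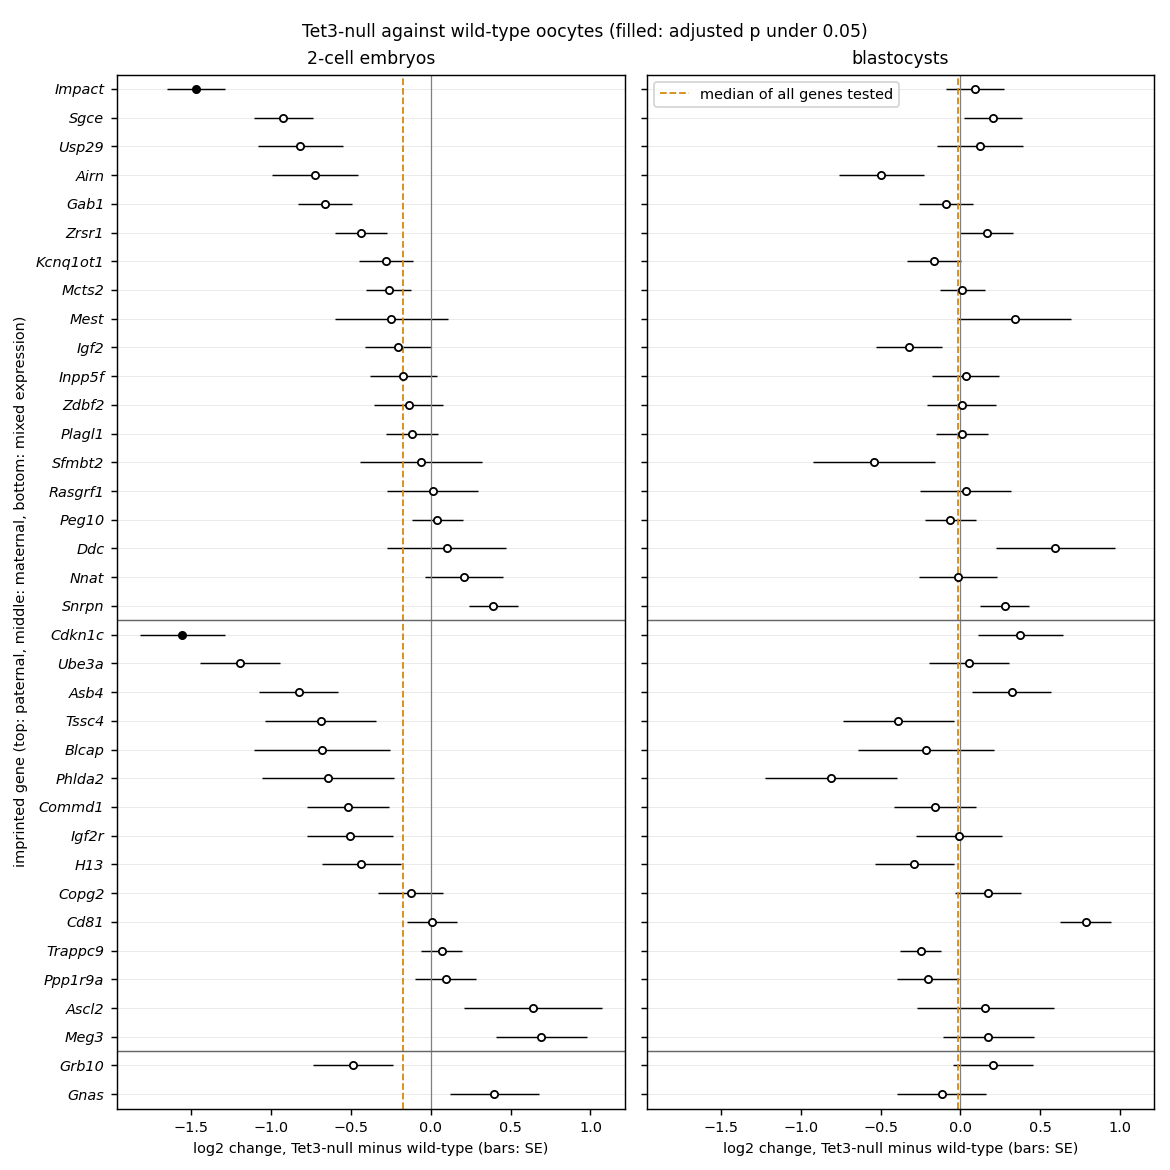
Log2 change of each tested imprinted gene, Tet3-null minus wild-type, at the 2-cell stage and in blastocysts, with bars for 1 SE, filled points for adjusted p under 0.05 and a dashed line at the median of all genes. Cdkn1c at -1.56 and Impact at -1.47 are the filled points at the 2-cell stage, and no point is filled in blastocysts.

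In blastocysts no imprinted gene passed the test between Tet3-null and wild-type embryos. None of the 36 was called, against 0.0664% of all genes, which is 9 genes. At an unadjusted p under 0.05 limma named 1 of 36, Cd81, against 5.46% of all genes. Cd81, a tetraspanin of the cell surface that is maternally expressed in the placenta, had 155 and 132 FPKM in Tet3-null blastocysts, against 86.1 and 78.9 FPKM in wild-type blastocysts. Both Tet3-null libraries lay above both wild-type libraries, at 1.73-fold of the mean (log2 change 0.78, SE 0.16, limma adjusted p = 0.450). In pools of whole embryos, more cells of a type and more RNA per cell cannot be told apart.

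The genes called at the 2-cell stage were not called in blastocysts. Cdkn1c had 4.74 and 3.71 FPKM in Tet3-null blastocysts, against 3.13 and 2.89 FPKM in wild-type blastocysts, with both Tet3-null libraries above both wild-type libraries and no call (log2 change 0.38, SE 0.27). Impact had 57.8 and 68.1 FPKM in Tet3-null blastocysts and 58.3 and 59.4 FPKM in wild-type blastocysts, and its groups overlapped (log2 change 0.09, SE 0.18). Ube3a, at 6.93 and 8.34 FPKM in Tet3-null and 7.66 and 6.94 FPKM in wild-type blastocysts, overlapped too.

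Sfmbt2, a paternally expressed Polycomb-group gene of extraembryonic tissue, had 14.3 and 13.9 FPKM in Tet3-null blastocysts, against 22.6 and 19.5 FPKM in wild-type blastocysts (log2 change -0.54, SE 0.38). Phlda2 had 4.02 and 7.45 FPKM in Tet3-null blastocysts, against 14.1 and 7.66 FPKM in wild-type blastocysts (log2 change -0.81, SE 0.41). Gab1 differed less, at 11.7 and 12.5 FPKM in Tet3-null and 12.9 and 13.1 FPKM in wild-type blastocysts. In these 3 genes both Tet3-null libraries lay below both wild-type libraries, and none was called. All 8 trophectoderm markers were detected in every blastocyst library and none was called. Their summed level was 2967 and 2724 FPKM in Tet3-null, against 4509 and 4193 FPKM in wild-type blastocysts. Most of that sum came from Krt8 and Krt18, with Krt18 at 2170 and 1985 FPKM in Tet3-null, against 3138 and 2966 FPKM in wild-type. Cdx2, Hand1 and Tfap2c overlapped between genotypes. Krt8, Krt18, Gata3, Eomes and Elf5 did not overlap and were lower in Tet3-null. The inner cell mass markers summed to 253 and 259 FPKM in Tet3-null and 241 and 236 FPKM in wild-type blastocysts. Primitive endoderm markers, mostly Gata6, summed to 116 and 127 FPKM in Tet3-null, against 117 and 107 FPKM in wild-type blastocysts. The Y-linked genes summed to 101 and 93.5 FPKM in Tet3-null blastocysts, against 54.3 and 49.2 FPKM in wild-type blastocysts, and Xist measured 6.36 and 4.64 FPKM in Tet3-null, against 16.6 and 14.6 FPKM in wild-type blastocysts. The part of these levels in the values of Cd81, Sfmbt2, Phlda2 and Gab1 was not tested.

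Most other abundant genes stood within narrow bounds in blastocysts. Snrpn stood at 162 and 156 FPKM in Tet3-null, against 132 and 129.96 FPKM in wild-type blastocysts (log2 change 0.28). Commd1, a maternally expressed copper-metabolism gene, stood at 128 and 139 FPKM in Tet3-null, against 142 and 157 FPKM in wild-type blastocysts (log2 change -0.16). Mcts2 stood at 64.6 and 67.9 FPKM in Tet3-null, against 69.9 and 61.7 FPKM in wild-type blastocysts. Snrpn and Commd1 did not overlap between genotypes and Mcts2 did, and none of them was called. Ddc, the aromatic amino acid decarboxylase next to Grb10, had 6.48 and 5.06 FPKM in Tet3-null blastocysts, against 3.94 and 3.03 FPKM in wild-type blastocysts (log2 change 0.59, SE 0.37). Sgce, at 8.02 and 7.07 FPKM in Tet3-null and 6.75 and 6.08 FPKM in wild-type blastocysts, was likewise higher in both Tet3-null libraries without a call. In Gnas, the stimulatory G protein alpha subunit, the groups overlapped at 47.8 and 60.6 FPKM in Tet3-null and 61.8 and 55.3 FPKM in wild-type blastocysts.

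By size, no imprinted gene lay 1 or more log2 units apart without overlap in blastocysts, against 0.812% of all genes, 0.280% higher and 0.531% lower. Without a limit on size 19 of 36 did not overlap, 9 higher and 10 lower, against 44.2% of all genes. The median log2 change was 0.01 over the paternally expressed genes, -0.01 over the maternally expressed genes and -0.02 over all genes.

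Whether the genotype difference itself changed with stage was tested as an interaction in the same fit. None of the 36 imprinted genes was called, against 0.140% of all genes, which is 19 genes. At an unadjusted p under 0.05 limma named 9 of 36, all with a difference that was more positive in blastocysts, against 14.4% of all genes (10.4% in that direction). Cdkn1c had the greatest difference of the log2 changes, 1.93 (SE 0.37, limma adjusted p = 0.129), followed by Impact with 1.56 (SE 0.26, limma adjusted p = 0.110). The values were 1.25 for Ube3a, 1.15 for Asb4, 1.13 for Sgce and 0.78 for Cd81, with limma adjusted p-values of 0.162 to 0.236. The count of calls varied with the library left out. Such a fit leaves 1 library in a group and its share over all genes is not given, so no count is read from it.

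Development from the 2-cell stage to the blastocyst moved most imprinted genes, in both genotypes. Of the 36 genes, 27 were called in Tet3-null embryos (16 higher and 11 lower in blastocysts) and 28 in wild-type embryos (15 higher and 13 lower). The shares over all genes were 74.0% in Tet3-null embryos (38.9% higher and 35.1% lower) and 74.3% in wild-type embryos (35.8% higher and 38.4% lower), close to those of the imprinted genes. In 24 genes the call went the same way in both genotypes, which is 88.9% of the calls in Tet3-null and 85.7% of those in wild-type embryos. The matching share over all genes is not given, so this agreement is not shown to be particular to imprinted genes. FPKM is a share of each library, so a difference between stages describes the make-up of the RNA and not the amount per embryo. Of the stage calls, 19 in Tet3-null and 20 in wild-type embryos were kept under every alternative setting and left-out library. Those lost at least once were Cdkn1c, Ddc, H13, Igf2, Mcts2, Nnat, Tssc4 and Zdbf2 in Tet3-null embryos, and Copg2, Gnas, Igf2, Nnat, Ppp1r9a, Rasgrf1, Tssc4 and Ube3a in wild-type embryos.

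**Figure D3:**
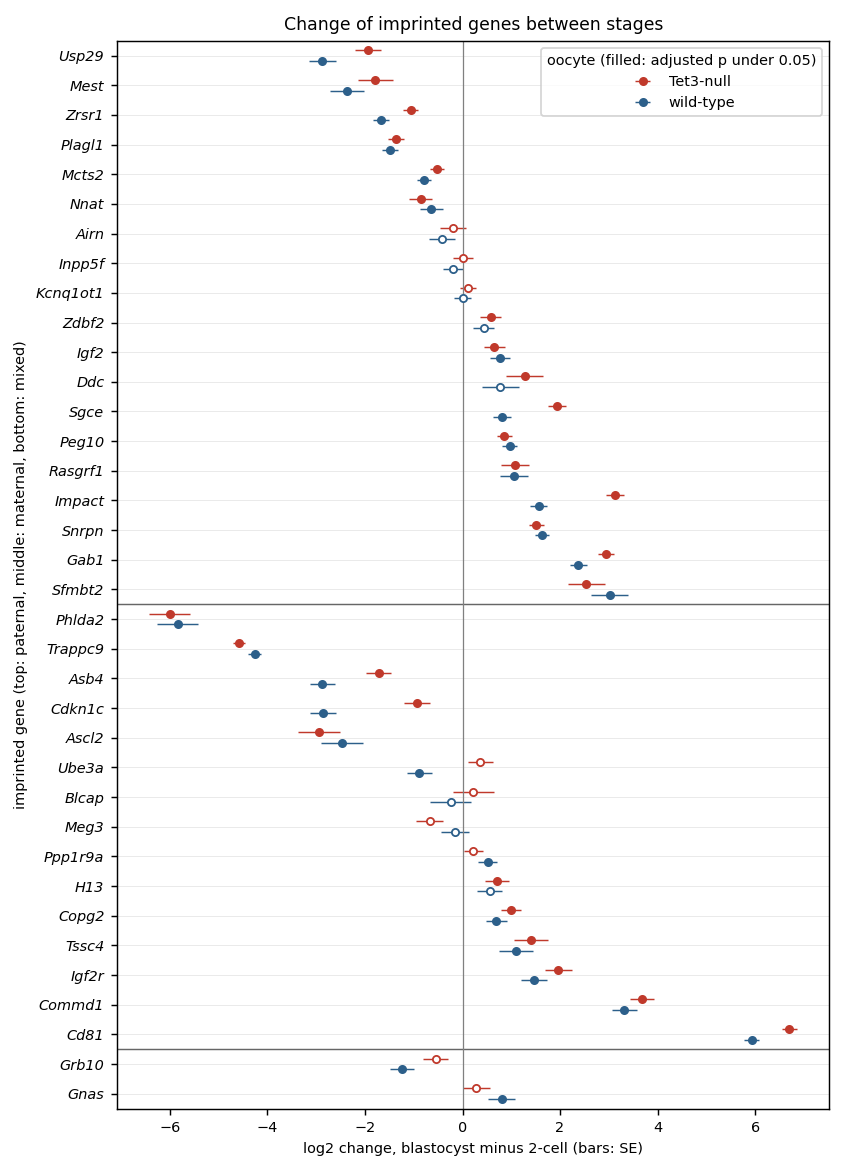
Log2 change of each tested imprinted gene from the 2-cell stage to the blastocyst, blastocyst minus 2-cell, in Tet3-null (red) and wild-type embryos (blue), with bars for 1 SE and filled points for adjusted p under 0.05. Cd81 stands at 6.70 in Tet3-null and 5.92 in wild-type embryos, and Phlda2 at -6.01 and -5.84 in the same order of genotypes.

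The genes that fell by the blastocyst stage include the most abundant imprinted RNAs of the 2-cell embryo. Phlda2 had 4.02 and 7.45 FPKM in Tet3-null blastocysts, against 553 and 315 FPKM in Tet3-null 2-cell embryos, a 75.7-fold difference of the means (log2 change -6.01). In wild-type embryos the difference was 61.6-fold (log2 change -5.84). Trappc9 had 15.7 and 13.7 FPKM in Tet3-null blastocysts, against 379 and 369 FPKM in Tet3-null 2-cell embryos, which is 25.4-fold lower. In wild-type embryos Trappc9 had 17.5 and 17.8 FPKM in blastocysts, against 363 and 351 FPKM at the 2-cell stage, which is 20.2-fold lower. At the 2-cell stage Phlda2 and Trappc9 made up 38.5% and 33.2% of the summed FPKM of the 51 genes in Tet3-null embryos, and 47.5% and 25.3% in wild-type embryos. In blastocysts the sum was spread over Snrpn (20.5% in Tet3-null and 18.2% in wild-type), Cd81 (18.5% and 11.5%) and Commd1 (17.2% and 20.8%), with genotypes in the same order.

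Other genes fell in both genotypes from lower levels. Ascl2 had 0.283 and 0 FPKM in Tet3-null blastocysts and 0 and 0.0329 FPKM in wild-type blastocysts, against 4.12 to 13.4 FPKM in the 2-cell libraries (log2 change -2.95 in Tet3-null and -2.47 in wild-type). Plagl1, a zinc finger transcription factor of the imprinted gene network, stayed at or under 0.161 FPKM in all blastocyst libraries. It stood at 1.72 and 1.84 FPKM in Tet3-null, against 2.07 and 1.96 FPKM in wild-type 2-cell embryos. Mest, a hydrolase-fold protein expressed in mesoderm later on, had 2.22 and 2.53 FPKM in Tet3-null blastocysts, against 7.07 and 15.7 FPKM in Tet3-null 2-cell embryos. In wild-type embryos Mest had 1.53 and 1.81 FPKM in blastocysts, against 15.7 and 10.4 FPKM at the 2-cell stage. Asb4 and Usp29 both had log2 changes of -2.87 in wild-type embryos, and of -1.72 for Asb4 and -1.93 for Usp29 in Tet3-null embryos. Cdkn1c fell by 0.94 on the log2 scale in Tet3-null embryos (limma adjusted p = 0.0144) and by 2.87 in wild-type embryos (limma adjusted p = 5.97e-05). Without Tet3-null blastocyst replicate 2 its Tet3-null call was lost (limma adjusted p = 0.0867). Zrsr1 and Mcts2 fell less, with log2 changes of -1.07 and -0.51 in Tet3-null and of -1.67 and -0.79 in wild-type embryos; the Tet3-null call of Mcts2 was lost without either Tet3-null blastocyst library (limma adjusted p = 0.0777 and 0.0509). Nnat, a small membrane protein named for its expression in brain, had log2 changes of -0.86 in Tet3-null and -0.64 in wild-type embryos, with under 2 FPKM in every library.

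Genes of both parental classes rose. Cd81 had the highest log2 change, 6.70 in Tet3-null and 5.92 in wild-type embryos, from a level under 0.5 FPKM in all 2-cell libraries. Commd1 had 128 and 139 FPKM in Tet3-null blastocysts, against 12.8 and 6.99 FPKM in Tet3-null 2-cell embryos, which is 13.5-fold higher. In wild-type embryos Commd1 had 142 and 157 FPKM in blastocysts, against 15.3 and 12.9 FPKM at the 2-cell stage, which is 10.6-fold higher. Impact was 9.91-fold higher in Tet3-null blastocysts than in Tet3-null 2-cell embryos and 3.03-fold higher in wild-type blastocysts than in wild-type 2-cell embryos. Igf2r stood at 19.3 and 21.2 FPKM in Tet3-null, against 21.5 and 19.2 FPKM in wild-type blastocysts, and rose by 1.97 in Tet3-null and 1.47 in wild-type embryos on the log2 scale. Snrpn rose by 1.51 in Tet3-null and 1.63 in wild-type embryos.

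Sfmbt2 and Gab1, which histone marks of the oocyte imprint in extraembryonic cells, rose in both genotypes. Sfmbt2 was 8.59-fold higher in Tet3-null blastocysts than in Tet3-null 2-cell embryos and 10.7-fold higher in the wild-type comparison. Gab1 was 17.1-fold higher in Tet3-null blastocysts and 7.63-fold higher in wild-type blastocysts. Sgce and its neighbour Peg10, a retrotransposon-derived gene needed for the placenta, rose in both genotypes. Peg10 stood at 1.51 and 1.48 FPKM in Tet3-null, against 1.49 and 1.74 FPKM in wild-type blastocysts, while the 2-cell libraries lay at 0.286 to 0.393 FPKM. Copg2 of the Golgi coat, Tssc4, Rasgrf1, a nucleotide exchange factor for Ras, and Igf2 were also called higher in both genotypes. Their log2 changes in Tet3-null and wild-type embryos were 0.995 and 0.696 for Copg2, 1.40 and 1.10 for Tssc4, 1.07 and 1.05 for Rasgrf1, and 0.65 and 0.77 for Igf2. Each of these 4 genes lost a call under at least 1 alternative, as listed above.

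A stage call was made in 1 genotype alone for 7 genes. Ddc, H13, which encodes signal peptide peptidase, and Zdbf2, a growth-promoting gene, were called higher in Tet3-null embryos, with log2 changes of 1.27, 0.70 and 0.58 there and of 0.78, 0.55 and 0.43 in wild-type embryos. Gnas and Ppp1r9a, a neuronal actin-binding protein, were called higher in wild-type embryos, with log2 changes of 0.28 for Gnas and 0.22 for Ppp1r9a in Tet3-null embryos and of 0.80 and 0.52 in wild-type embryos. Grb10 and Ube3a were called lower in wild-type embryos, with log2 changes of -0.55 for Grb10 and 0.37 for Ube3a in Tet3-null embryos and of -1.24 and -0.88 in wild-type embryos. None of the 7 was called in the interaction test, so a difference between genotypes in these stage changes was not shown.

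Imprinted genes often lie in pairs that overlap or start back to back, and 8 such pairs were set side by side. Nnat with Blcap, Kcnq1ot1 with Kcnq1 and Peg13 with Trappc9 are shown in the figure alone, and no ratio is read from them. Kcnq1 and Peg13 did not pass the filter, and Nnat was at most 1.59 FPKM in any library. Usp29 and Peg3 share the start region printed above. The mean of Usp29 was 0.658 times that of Peg3 in Tet3-null and 0.675 times in wild-type blastocysts, against 11.01 times in Tet3-null and 19.4 times in wild-type 2-cell embryos. Peg3, a zinc finger gene, did not pass the filter and was at most 1.16 FPKM in any library. Zrsr1 lies inside an intron of Commd1 on the opposite strand. Commd1 was at 45.5 times the mean of Zrsr1 in Tet3-null and 59.4 times in wild-type blastocysts, against 1.37 times in Tet3-null and 1.39 times in wild-type 2-cell embryos. In both pairs the ratio differed far more between the stages than between the genotypes.

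Mest and its antisense neighbour Copg2 changed places between the stages. Mest was at 0.404 times the mean of Copg2 in Tet3-null and 0.324 times in wild-type blastocysts, against 4.64 times in Tet3-null and 4.70 times in wild-type 2-cell embryos. Mcts2, the retrocopy within H13, exceeded its host at both stages, at 15.7 times H13 in Tet3-null and 12.3 times in wild-type blastocysts, against 42.8 times in Tet3-null and 33.5 times in wild-type 2-cell embryos. Mcts2 and Zrsr1 resemble their parent genes Mcts1 and Zrsr2, and how the authors' counting split shared reads is not given in the sources used here, so their levels are uncertain. Igf2r exceeded its antisense RNA Airn 21.9-fold in Tet3-null and 12.004-fold in wild-type blastocysts, against 3.72-fold in Tet3-null and 2.63-fold in wild-type 2-cell embryos. Commd1 and Zrsr1, Mest and Copg2, and Igf2r and Airn overlap on opposite strands, and Mcts2 and H13 on the same strand, so reads of partners cannot be told apart by strand.

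**Figure D4:**
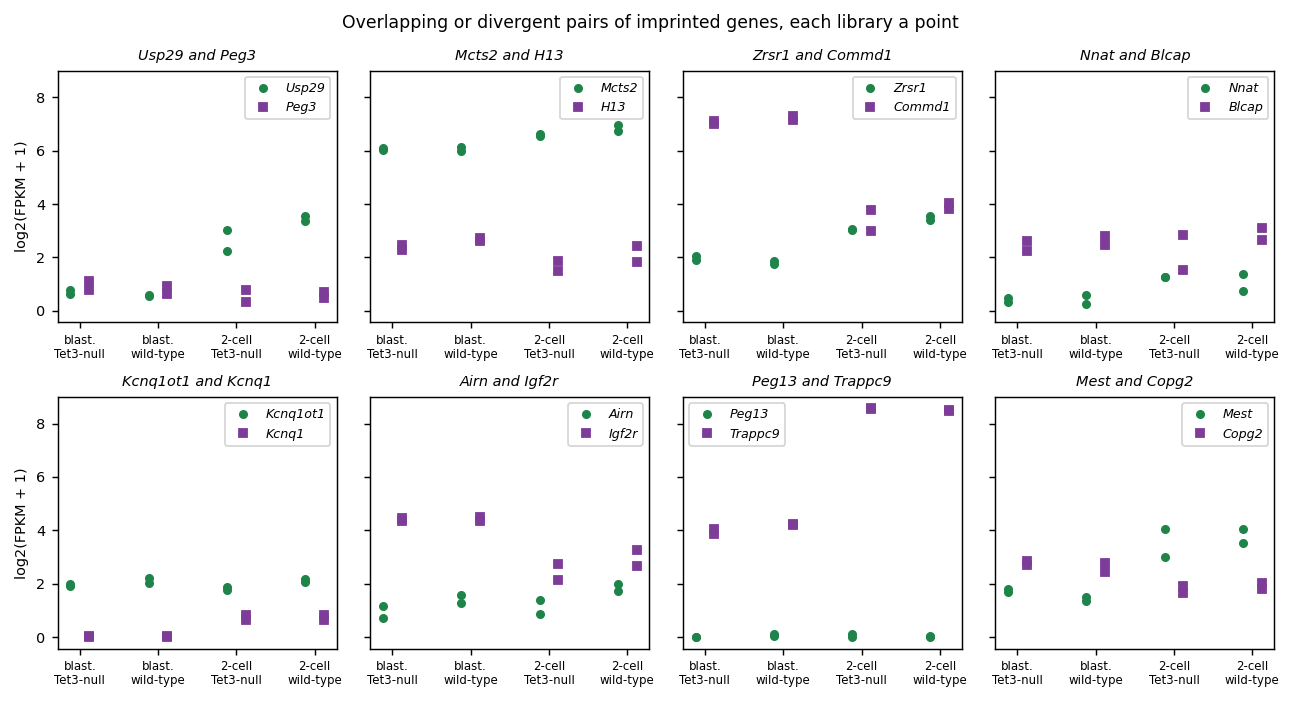
Levels, as log2(FPKM + 1), of 8 pairs of overlapping or back-to-back imprinted genes in each library, by group, with the first gene of a pair as green circles and the second as purple squares. Usp29 exceeds Peg3, and Mest exceeds Copg2, in the 2-cell groups and not in the blastocyst groups, while Mcts2 exceeds H13 in every group.

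The 15 imprinted genes that did not pass the filter were H19, Peg3, Zim1, Kcnq1, Dlk1, Nap1l5, Ndn, Magel2, Mkrn3, Dcn, Klf14, Peg12, Peg13, Kcnk9 and Calcr. Of these, 11 stayed under 1 FPKM in all 8 libraries. Kcnk9, a potassium channel that is maternally expressed in brain, was listed at 0 in both Tet3-null 2-cell libraries and in all blastocyst libraries, and at 0.841 and 1.52 FPKM in the wild-type 2-cell libraries. It was picked out after its values were seen and reached 1 FPKM in 1 library only, so it was not tested. Mkrn3 was listed at 0 in all 2-cell libraries, and the highest of its blastocyst values was 0.4004 FPKM in a Tet3-null library.

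Genes outside the 51 that act on or share imprinting were looked at as 2 lists. Of 23 regulators of imprints, 2 were called at the 2-cell stage and none in blastocysts, against 2.72% of all genes at the 2-cell stage and 0.0664% in blastocysts. Their median log2 change was -0.15 at the 2-cell stage and -0.10 in blastocysts, beside -0.17 and -0.02 over all genes. Dppa3, which shields maternal methylation, was higher, at 25556 and 23206 FPKM in Tet3-null and 16289 and 16957 FPKM in wild-type 2-cell embryos (log2 change 0.55, limma adjusted p = 0.0471). Zfp42, a zinc finger protein bound at some imprinted loci, was lower, at 28.1 and 24.8 FPKM in Tet3-null and 42.3 and 50.8 FPKM in wild-type 2-cell embryos (log2 change -0.79, limma adjusted p = 0.0435). Of 40 further imprinted genes, 38 were listed, 24 were tested and 2 were called at the 2-cell stage, again against 2.72% of all genes. Their median log2 change was -0.32 there, beside -0.17 over all genes, and 0.05 in blastocysts, where none was called, beside -0.02 over all genes. Cobl, an actin nucleator next to Grb10, was higher, at 4.68 and 4.34 FPKM in Tet3-null and 1.40 and 1.63 FPKM in wild-type 2-cell embryos (log2 change 1.13, limma adjusted p = 0.0296). Dio3, the deiodinase of the Dlk1-Meg3 domain, was lower, at 1.45 and 0.980 FPKM in Tet3-null and 5.30 and 4.87 FPKM in wild-type 2-cell embryos (log2 change -1.46, limma adjusted p = 0.0218).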

How the data were processed

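Per the submitters' processing notes, the authors worked on build mm9 with Cufflinks (2.2.0), TopHat2 (2.0.10) and Bowtie2 (2.1.0). The deposited values are FPKM, 1 file per library, with 23234 genes listed in each. For annotation, settings and shared reads the sources used here give nothing. Read totals are unknown, so no counting interval is given. The cDNA kit amplifies RNA of whole embryos and the library kit does not mark strand, per the labels' protocols.

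From these values, log2(FPKM + 1) was fitted in limma 3.58.1 (R 4.3.3) with 4 group means over all 8 libraries and trended empirical Bayes variances (prior degrees of freedom 3.07, residual 4), for the 13549 genes reaching 1 FPKM in 2 or more libraries. Tests were two-sided, with Benjamini-Hochberg adjustment over all genes tested; every adjusted p printed is from limma. The procedure was tested on simulated data. The genotypes were compared within each stage, the stages within each genotype, and the genotype effect between stages. A count by size took genes without overlap and 1 or more log2 units apart. The rule for members to name gave 31, those that were called in any comparison, passed that count or averaged at least 10 FPKM in a group.

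The 51 members, their parental class and all lists (regulators of imprints, other imprinted genes, and markers of oocyte, cumulus and granulosa cells, 2-cell stage, trophectoderm, inner cell mass, primitive endoderm, Y-linked genes and Xist) were chosen with earlier results of these data known. Overlaps of genes came from GENCODE M21, which is of another build, and start regions from RefSeq (GRCm38.p6); no coordinate was carried over. Replicate numbers are not said to pair libraries, and libraries of the same number did not deviate together. Alternatives were another pseudocount (0.1), no filter, median-of-ratios scaling, quantile normalization, a replicate block, the libraries of 1 stage alone and leaving out each library; leaving Tet3-null 2-cell replicate 2 out of comparisons without that group was added after seeing the data.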

Additional observations from a re-analysis of the deposited data

How the results depend on the processing

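At the 2-cell stage the count of 2 imprinted genes called became 1 with a pseudocount of 0.1, with median-of-ratios scaling or with quantile normalization, in each case through Cdkn1c (limma adjusted p = 0.0531, 0.0578 and 0.0527), and 0 with only the 4 libraries of the stage. Without the filter it was 2 again, but Cdkn1c was not among them (limma adjusted p = 0.0646). With the replicate block it was 0 as well (limma adjusted p = 0.135 for Cdkn1c and 0.134 for Impact). The deviations of same-numbered libraries had a correlation of -0.0756 at the 2-cell stage and 0.0184 in blastocysts. With 1 such correlation per stage, whether the numbers pair libraries cannot be decided. Leaving out 1 library gave 0 to 9 calls, the 9 (3 higher and 6 lower) without Tet3-null replicate 1. The 3 genes found by size became 6 with a pseudocount of 0.1 and 2 to 6 with a library left out. The paternal median of -0.20 was -0.28 with a pseudocount of 0.1, -0.14 without a filter, 0.011 with median-of-ratios scaling, -0.042 with quantile normalization and -0.37 to -0.11 with a library left out. The maternal median of -0.51 was -0.26 under median-of-ratios scaling; with a library left out it was -0.41 to -0.22. In blastocysts no alternative gave a call; the count by size was 0 to 1, the paternal median -0.020 to 0.10 and the maternal median -0.085 to -0.0067 with a library left out. The interaction gave 0 to 5 calls with a library left out and 0 under every other setting. Stage calls numbered 19 to 28 in Tet3-null and 21 to 29 in wild-type embryos with a library left out. Of 548 recomputed values of genes that were called or found by size, 484 stayed on the same side of the threshold in the same direction. Of the rest, 63 lost the call, 1 gained it and none turned round. Most of these values were stage changes, 277 in wild-type and 241 in Tet3-null embryos. The 2-cell genotype comparison held 30 values, of which 17 stayed, 12 lost the call and 1 gained it. Cdkn1c lost its call under 8 of 10 alternatives and Impact under 4 of 10. A left-out library leaves a lone sample that is assumed to vary like the other groups. The causes were not tested.

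With 2 libraries a group, sizeable differences between genotypes missed the threshold: Ube3a with a log2 change of -1.20 and a standard error of 0.25 at the 2-cell stage, and Cd81 with 0.78 and 0.16 in blastocysts. An uncalled gene is therefore not shown to be alike in both genotypes.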
